A study of Mus musculus with 6 samples.

Results

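The laminin family was examined as the 8 alpha, beta and gamma chain genes *Lama1*, *Lama3*, *Lama4*, *Lama5*, *Lamb1*, *Lamb2*, *Lamb3* and *Lamc1*, chosen by gene symbol from the 36172 genes of an RNA sequencing table. The table covers organoids grown from small intestinal tumors of C57BL/6 mice aged 15–20 weeks, with 2 mice and 2 independently prepared organoid libraries for each of 3 genotypes. All organoids carried the *Apc* truncation at codon 716 together with loss of the other *Apc* allele, so that even the controls were tumor cells. The comparison asks how laminin chain RNA differed with the state of *Trp53*, the gene for the tumor suppressor p53. Apc(D716) p53(+/+) organoids, the controls, kept wild-type *Trp53*. Apc(D716) p53(flox/flox) organoids were homozygous for an allele that is functionally null until a blocking cassette is removed. In Apc(D716) p53(M/M) organoids that cassette had been removed by a tamoxifen-activated Cre under the villin promoter, which is active in intestinal epithelium, and both alleles encoded the R270H missense protein. Each mouse gave 1 library. The p-values of the main fit rest on the spread between the 2 mice of each genotype, pooled over the 3 genotypes and drawn toward that of other genes.

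Laminins are large secreted proteins built from an alpha, a beta and a gamma chain joined in a coiled coil. They polymerize into the first sheet of a basement membrane, which nidogens, perlecan and type IV collagen then join, and epithelial cells hold on to that sheet through integrins and dystroglycan. In the gut the *Lama5* product is the main alpha chain of the villus basement membrane, while the *Lama3* and *Lamb3* products belong to the trimer that anchors hemidesmosomes.

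Expression was given as RPKM, the read count of a gene scaled to its transcript length and to the mapped reads of its library, so that levels of different genes can be compared. No value lay below 1 RPKM, and 23760 of the 36172 genes stood at exactly 1 in all 6 libraries. A value of 1 is therefore read as a floor: the true level is at most about 1 RPKM and may be 0. *Trp53* matched the labels, with 75.9 and 74.3 RPKM in p53(+/+), 1.73 and 2.48 RPKM in p53(flox/flox), and 72.8 and 82.7 RPKM in p53(M/M) libraries. The p53(flox/flox) library 1 stood apart from its replicate. The Pearson correlation of log2(RPKM + 1) between replicates was 0.932 for p53(flox/flox), against 0.996 for p53(+/+) and 0.993 for p53(M/M), over 10042 genes. Among markers of other cell types, fibroblast genes were at the floor in 5 libraries and summed to 4.72 RPKM in p53(flox/flox) library 2. Smooth muscle markers summed to 12.6 RPKM there and to at most 2.80 RPKM elsewhere, and the leukocyte markers, of which 5 of 6 were at the floor throughout, summed to between 2.06 and 11.1 RPKM. All 4 glial and neuronal markers were at the floor, while the 8 epithelial markers summed to between 2327 and 4557 RPKM. The sequencing depth was not given. An estimate from the gaps between values of short RNAs put p53(flox/flox) library 1 at 23.1 M reads, on 6 genes, and the other 5 libraries at 44.2 to 52.2 M reads. Values near the floor are the least precise.

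Of the 8 chains, *Lama5* had the highest level in p53(+/+) organoids, at 35.0 ± 0.597 RPKM (SD, n = 2). It was followed by *Lamb3* at 16.2 ± 0.198, *Lamc1* at 14.7 ± 0.839, *Lamb2* at 9.40 ± 0.571 and *Lamb1* at 4.94 ± 0.235 RPKM. The values of neighbours in this order did not overlap in the p53(+/+) libraries. *Lama3* stood just above the floor at 1.19 ± 0.237 RPKM, and *Lama1* and *Lama4* were at the floor in both libraries. In p53(M/M) organoids *Lama5* and *Lamc1* were level, at 20.2 ± 3.62 and 20.0 ± 0.460 RPKM, and their values overlapped.

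**Figure D1:**
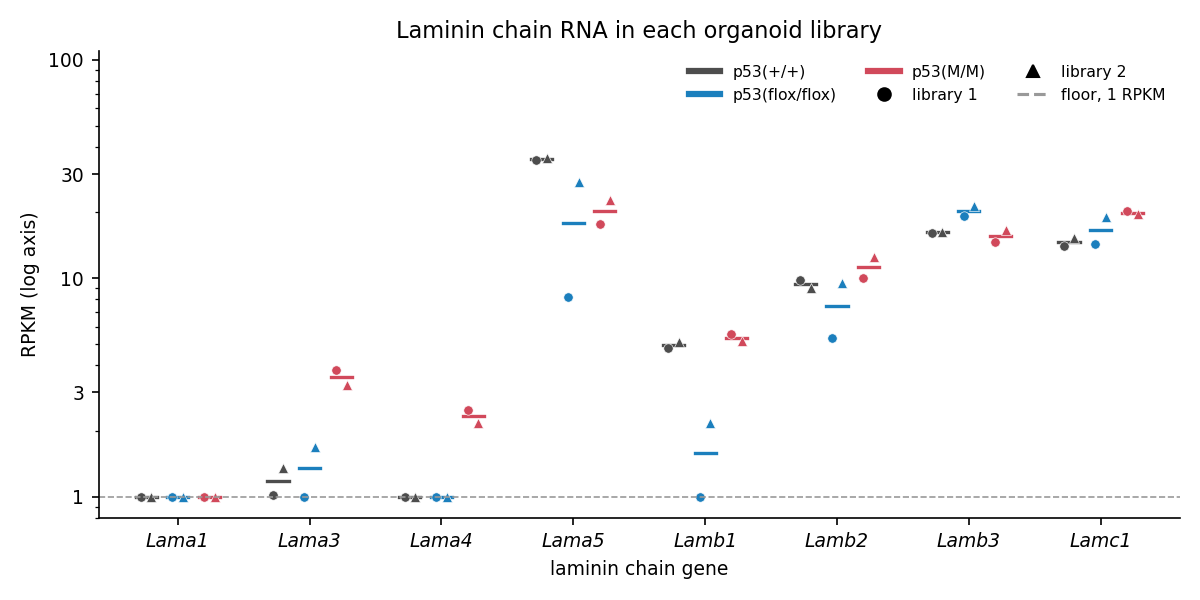
RPKM (log axis) of the 8 laminin chain genes in each of the 6 libraries, with circles for library 1, triangles for library 2, bars for genotype means and a dashed line at the floor of 1 RPKM. *Lama4* left the floor only in the 2 p53(M/M) libraries, *Lamb1* was lowest in the 2 p53(flox/flox) libraries, and *Lama1* was at the floor throughout.

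Differences were tested with limma on log2(RPKM + 1) across the 10042 genes that reached 4 RPKM in 1 or more libraries, with Benjamini-Hochberg adjustment over these genes. 5 of the 8 chains passed this filter. *Lama1* did not because it was at the floor in all 6 libraries, and *Lama3* and *Lama4* did not because their highest values were 3.82 and 2.50 RPKM. A gene was called at an adjusted p under 0.05. The p53(M/M) organoids against p53(+/+) gave 0 calls among the 5 chains. Of these chains 1, *Lamc1*, had an unadjusted p under 0.05, a threshold for which no share of all genes is given. Of all genes tested in this comparison, 5.86% were called higher and 6.36% lower. The p53(flox/flox) organoids against p53(+/+) gave 1 lower call, *Lamb1*, and 0 higher, against 6.90% of all genes called lower and 4.38% higher. The p53(M/M) organoids against p53(flox/flox) gave 1 higher call, again *Lamb1*, and 0 lower, where 13.6% of all genes were called higher and 11.0% lower. These 3 comparisons share libraries, so that their calls are not separate evidence. *Lamb1* passed the filter through the p53(+/+) and p53(M/M) libraries alone, so that its calls describe the values only. The median difference of the 5 chains was 0.10, -0.35 and 0.37 on the log2 scale in the 3 comparisons, in that order, against 0.03, -0.02 and 0.03 for all genes tested.

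*Lama5* (chromosome 2, 180176373–180225859, minus strand, GRCm38) encodes the alpha chain shared by the most widespread epithelial laminins, and its RNA was lower in mean level in both genotypes without wild-type p53. It measured 34.6 and 35.4 RPKM in p53(+/+), 8.23 and 27.6 RPKM in p53(flox/flox), and 17.7 and 22.8 RPKM in p53(M/M) libraries. All 4 libraries without wild-type p53 lay below both p53(+/+) libraries, and the p53(flox/flox) values spanned those of p53(M/M). The mean of p53(+/+) was 1.73 times that of p53(M/M), a log2 difference of -0.77 ± 0.52 (SE) with a 95% interval of -2.10 to 0.56 and a limma adjusted p of 0.369. Against p53(flox/flox) it was 1.95 times, a log2 difference of -1.15 ± 0.52 with an adjusted p of 0.186. Neither passed. The p53(flox/flox) libraries differed 3.36-fold from each other, against 1.02-fold in p53(+/+) and 1.29-fold in p53(M/M), and all 3 genotypes share the error of the fit. When only the 2 p53(+/+) and 2 p53(M/M) libraries were fitted, the same difference of -0.77 had an adjusted p of 0.00295. In that fit 3180 of the 10042 genes tested were called higher and 2671 lower, so that passing there sets *Lama5* little apart. The difference of -0.77 rests on the p53(+/+) and p53(M/M) libraries alone, so that leaving out a p53(flox/flox) library could not change it. For p53(flox/flox) against p53(+/+), the difference was -0.33 without p53(flox/flox) library 1 and -1.96 without library 2. Between p53(M/M) and p53(flox/flox) the difference was 0.37 (adjusted p = 0.605), and it was -0.44 without p53(flox/flox) library 1 and 1.19 without library 2.

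The difference between the p53(flox/flox) libraries moved with transcript length over all genes. The median of library 1 minus library 2 on the log2 scale was 0.38 for 2134 genes whose longest annotated transcript is under 2000 nt and -0.56 for 1380 genes of 6000 nt or more. The corresponding medians were 0.03 and -0.02 in p53(+/+), and -0.09 and 0.06 in p53(M/M). Laminin transcripts are long, from 4867 nt for *Lamb3* to 11388 nt for *Lama5*, and all 6 chains above the floor in that genotype were lower in library 1. The difference was -1.63 for *Lama5*, -0.74 for *Lamb2*, -0.66 for *Lamb1*, -0.43 for *Lama3*, -0.40 for *Lamc1* and -0.15 for *Lamb3*. The part of transcript length in the values of this library was not tested.

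**Figure D2:**
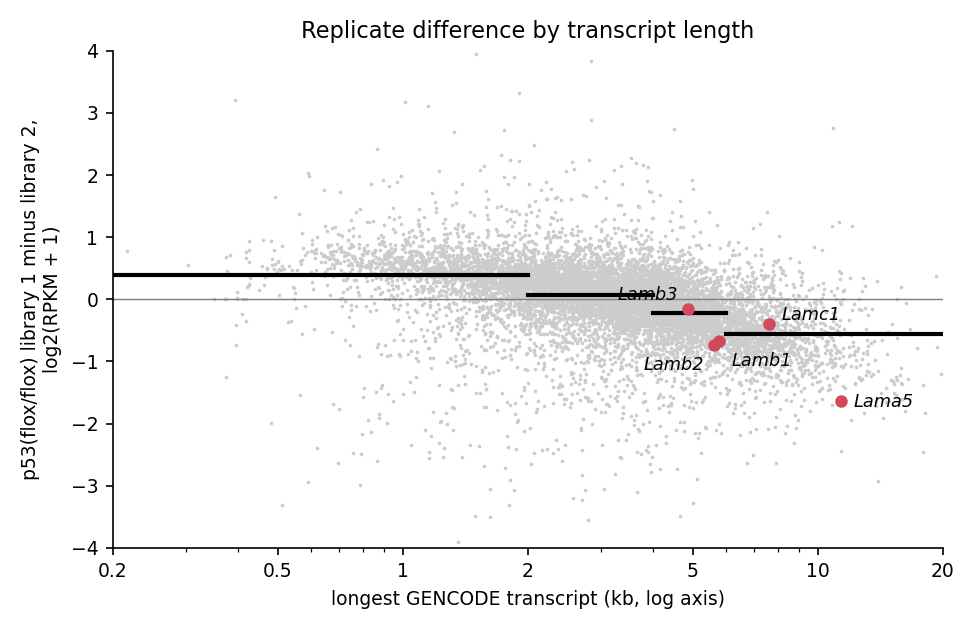
Difference between p53(flox/flox) library 1 and library 2 in log2(RPKM + 1) against the longest annotated transcript in kb (log axis) for each tested gene with an annotation match (grey), with black bars for the median in 4 length classes. The medians fell from 0.38 to -0.56 with length, and the 5 tested laminin chains (red) lay below 0, with *Lama5*, the longest, at -1.63.

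The promoter side of the *Lama5* start is shown because *Lama5* was the most abundant chain and p53, the protein that differs between the genotypes, is a DNA-binding transcription factor. The 250 bases before the start are at chr2:180225860-180226109 on the minus strand (GRCm38.p6, from RefSeq), printed 5′ to 3′ with GGGCGG boxes, on either strand, in capitals.

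Lama5: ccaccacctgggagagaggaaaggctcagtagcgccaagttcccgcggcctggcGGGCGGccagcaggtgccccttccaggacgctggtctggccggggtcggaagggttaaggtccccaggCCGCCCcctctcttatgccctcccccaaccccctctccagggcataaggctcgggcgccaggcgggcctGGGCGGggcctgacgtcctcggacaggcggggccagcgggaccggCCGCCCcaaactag

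This stretch holds 4 such boxes and has a GC content of 72.4%. Promoter windows of 300 bases, 250 before and 50 after the start, were found for 4 of the 8 chains, *Lama5*, *Lamb1*, *Lamb2* and *Lamb3*. None of the 4 matched the degenerate consensus of a p53 half-site on either strand, which 8.4% of 32851 such windows did, and 35.7% of windows held a GGGCGG box. A missing match says only that these letters are not in the window.

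*Lama3* (chromosome 18, 12333819–12583013, plus strand) encodes the alpha chain of the hemidesmosomal trimer and was highest in p53(M/M) organoids. It measured 1.02 and 1.35 RPKM in p53(+/+), 1.00 (the floor) and 1.70 RPKM in p53(flox/flox), and 3.82 and 3.24 RPKM in p53(M/M) libraries. Both p53(M/M) values lay above all 4 others, and the other genotypes overlapped. Because *Lama3* missed the 4 RPKM filter, it was tested among the 12412 genes above the floor in at least 1 library, a choice made after its values were known. On that footing *Lama3* was higher in p53(M/M) than in p53(+/+) by 1.05 ± 0.18 on the log2 scale (limma adjusted p = 0.0245) and higher than in p53(flox/flox) by 0.96 ± 0.18 (adjusted p = 0.0239). Of these 12412 genes, 8.37% were called higher in the first comparison and 15.4% in the second. The means were 3.53 ± 0.412 RPKM in p53(M/M) and 1.19 ± 0.237 RPKM in p53(+/+), a ratio of 2.97. The adjusted p against p53(+/+) ranged from 0.00687 to 0.189 as single libraries were left out, exceeding 0.05 when any one of the p53(+/+) or p53(M/M) libraries was missing. Against p53(flox/flox) it ranged from 0.00509 to 0.179 and exceeded 0.05 without the same libraries. With no filter on low values the adjusted p was 0.0715 in the first comparison and 0.0697 in the second, where fitting only the 2 genotypes gave 0.0744 and weights per genotype gave 0.136. An antisense gene shares 197 of the 10745 exon bases of *Lama3*, and whether the counting used strand was not given.

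*Lama4* (chromosome 10, 38965515–39110188, plus strand) encodes an alpha chain best known from endothelial basement membranes, and it was above the floor in p53(M/M) organoids alone. The 2 p53(M/M) libraries had 2.50 and 2.17 RPKM, while all 4 libraries of the other genotypes stood at the floor of 1 RPKM. The p53(M/M) mean of 2.34 ± 0.233 RPKM was thus at least 2.34-fold higher than in either other genotype, with the floor of the table as the bound. No test is given, because the gene left the floor in p53(M/M) libraries alone and the floor hides the spread of the others. Of 7 endothelial markers, 5 were at the floor in all libraries. The other markers summed to 12.9 and 13.3 RPKM in p53(+/+), 0 and 24.7 RPKM in p53(flox/flox), and 2.20 and 1.13 RPKM in p53(M/M) libraries. This sum, of *Cdh5* and *Tek* alone, was lower in p53(M/M) than in p53(+/+) libraries. The source of the *Lama4* RNA was not tested. In bulk RNA, more cells of a type and more RNA per cell cannot be told apart.

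*Lama1* (chromosome 17, 67697259–67822647, plus strand), whose product is the alpha chain of early embryonic basement membranes, was at the floor in all 6 libraries. The same held for *Lama2*, the alpha chain gene best known from muscle, which is no member of the set. Measured levels of alpha chain RNA were thus those of *Lama5* with a smaller amount of *Lama3* and *Lama4*.

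The makeup of the alpha chains differed accordingly. *Lama5* took 92.0% and 91.4% of the summed RPKM of the 4 alpha chain members in p53(+/+), 73.3% and 88.2% in p53(flox/flox), and 70.7% and 78.1% in p53(M/M) libraries. *Lama3* took 15.3% and 11.1% in p53(M/M), against 2.71% and 3.49% in p53(+/+), and *Lama4* took 10.01% and 7.44% in p53(M/M). In p53(flox/flox) *Lama3* took 8.90% and 5.41%, and *Lama4*, although at the floor, took 8.90% and 3.19%. Both p53(M/M) shares of *Lama5* lay below both p53(+/+) shares. Part of the p53(flox/flox) share is the floor itself, since with floor values counted as 0 the mean *Lama5* share was 96.7% in p53(+/+), 97.1% in p53(flox/flox) and 77.2% in p53(M/M). On that count p53(flox/flox) was level with p53(+/+), and p53(M/M) remained the lowest.

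**Figure D3:**
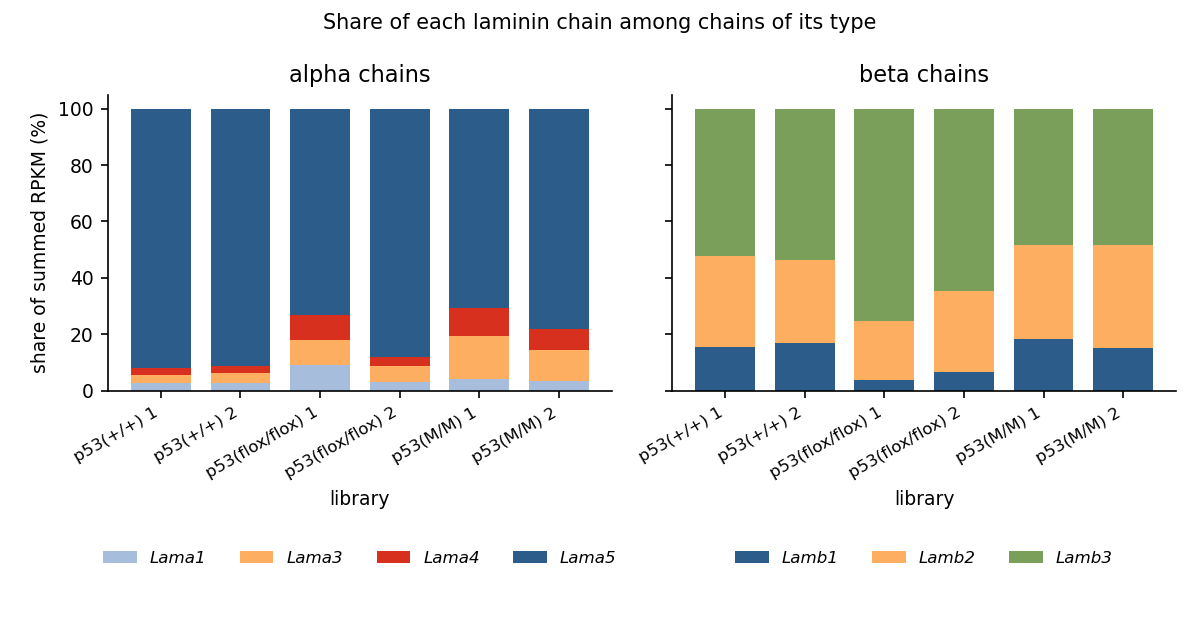
Stacked bars of each chain's share (%) of the summed RPKM of the alpha chain members (left) and beta chain members (right) in each of the 6 libraries, with floor values counted as 1 RPKM. *Lama5* took 92.0% and 91.4% of the alpha chain sum in p53(+/+) and 70.7% and 78.1% in p53(M/M), and *Lamb1* took its smallest share in the 2 p53(flox/flox) libraries, 3.92% and 6.56%.

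*Lamb1* (chromosome 12, 31265234–31329644, plus strand) encodes the beta chain that pairs with *Lamc1* in the widespread laminins, and it was the only one of the 5 chains past the filter that was called. It measured 4.77 and 5.11 RPKM in p53(+/+), 1.00 (the floor) and 2.17 RPKM in p53(flox/flox), and 5.54 and 5.17 RPKM in p53(M/M) libraries. Both p53(flox/flox) values lay below all 4 others, whereas the p53(M/M) values lay above those of p53(+/+) by little. The gene passed the 4 RPKM filter through the p53(+/+) and p53(M/M) libraries alone, where it was high. Its calls against p53(flox/flox) are therefore given as a description and support nothing. *Lamb1* fell in p53(flox/flox) against p53(+/+) by 1.24 ± 0.24 on the log2 scale, with a 95% interval of -1.85 to -0.63 and a limma adjusted p of 0.0374. It was higher in p53(M/M) than in p53(flox/flox) by 1.33 ± 0.24, with an interval of 0.72 to 1.94 and an adjusted p of 0.0211. Between p53(M/M) and p53(+/+) the difference was 0.10, with an interval of -0.51 to 0.71 and an adjusted p of 0.820. The p53(+/+) mean of 4.94 ± 0.235 RPKM was 3.12 times the p53(flox/flox) mean of 1.58 ± 0.827 RPKM, a ratio that understates the difference where the floor applies.

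The *Lamb1* calls lay close to the threshold. Both calls were lost without any one of the p53(+/+) or p53(M/M) libraries, where the number of all genes called fell as well. In p53(flox/flox) against p53(+/+) the limma adjusted p was 0.123 with only the 2 genotypes fitted and 0.0869 with weights per genotype. It was 0.0511 without a pseudocount and 0.115 with no filter. In p53(M/M) against p53(flox/flox) it was 0.0772 with the 2 genotypes and 0.0624 with no filter. Over all genes, these fits of 2 genotypes called 11 higher and 43 lower in the first comparison, and 284 and 159 in the second. Without p53(flox/flox) library 1, which stood apart and held the floor value, *Lamb1* differed from p53(+/+) by -0.91 on the log2 scale, and without library 2 by -1.57. With a single p53(flox/flox) library left, that genotype adds no spread to the fit.

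The promoter side of *Lamb1* is shown because it was the chain called lower in p53(flox/flox). The 191 bases up to the gene's annotated start are at chr12:31265043-31265233 on the plus strand (GRCm38.p6, from RefSeq), with GGGCGG boxes in capitals.

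Lamb1: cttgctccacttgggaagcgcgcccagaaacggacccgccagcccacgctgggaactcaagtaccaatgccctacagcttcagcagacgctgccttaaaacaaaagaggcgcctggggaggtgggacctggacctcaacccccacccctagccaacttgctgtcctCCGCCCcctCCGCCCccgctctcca

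This stretch has a GC content of 63.9% and holds 2 such boxes, both on the opposite strand and close to the start.

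*Lamb2* (chromosome 9, 108479736–108490530, plus strand) encodes the beta chain that takes the place of *Lamb1* in laminins of the kidney filter and the nerve-muscle junction. It measured 9.81 and 9.0 RPKM in p53(+/+), 5.32 and 9.52 RPKM in p53(flox/flox), and 10.1 and 12.5 RPKM in p53(M/M) libraries. The p53(flox/flox) values overlapped those of p53(+/+), and both p53(M/M) values lay above all others. The differences did not pass, at 0.23 for p53(M/M) and -0.35 for p53(flox/flox) against p53(+/+), with limma adjusted p of 0.594 and 0.377, and 0.58 between p53(M/M) and p53(flox/flox) (adjusted p = 0.155). Without p53(flox/flox) library 2 the differences with that genotype were -0.72 and 0.95, and without library 1 they were 0.018 and 0.22.

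*Lamb3* (chromosome 1, 193207699–193343878, plus strand), the beta chain gene of the hemidesmosomal trimer, was highest in p53(flox/flox) organoids. It measured 16.1 and 16.4 RPKM in p53(+/+), 19.2 and 21.4 RPKM in p53(flox/flox), and 14.6 and 16.7 RPKM in p53(M/M) libraries. Both p53(flox/flox) values lay above all 4 others, and p53(M/M) overlapped p53(+/+). The log2 differences were 0.30 for p53(flox/flox) and -0.05 for p53(M/M) against p53(+/+), and -0.36 between p53(M/M) and p53(flox/flox), with limma adjusted p of 0.135, 0.793 and 0.0771. Without p53(flox/flox) library 1 the first of these differences was 0.38 and the last -0.43. Without library 2 they were 0.23 and -0.28.

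As shares of the 3 beta chains, *Lamb3* took 52.4% and 53.7% in p53(+/+), 75.2% and 64.6% in p53(flox/flox), and 48.3% and 48.5% in p53(M/M) libraries. *Lamb1* took 15.6% and 16.8%, 3.92% and 6.56%, and 18.3% and 15.0% in the same order. In the shares of *Lamb1* and *Lamb3*, p53(flox/flox) did not overlap the other genotypes, and the values within each genotype lay closest together in p53(+/+) for *Lamb1* and in p53(M/M) for *Lamb3*.

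*Lamc1* (chromosome 1, 153218922–153332786, minus strand) encodes the gamma chain of most laminins. It measured 14.1 and 15.3 RPKM in p53(+/+), 14.3 and 19.1 RPKM in p53(flox/flox), and 20.3 and 19.6 RPKM in p53(M/M) libraries. Both p53(M/M) values lay above all others, and p53(flox/flox) overlapped p53(+/+). The p53(M/M) mean was 1.36 times that of p53(+/+), a log2 difference of 0.42 ± 0.16 with a 95% interval of 0.02 to 0.82 and a limma adjusted p of 0.142, which did not pass. With only these 2 genotypes in the fit the adjusted p was 0.00339. In that fit 3180 of the 10042 genes tested were called higher and 2671 lower, so that passing there sets *Lamc1* little apart. The difference of 0.42 is likewise set by the p53(+/+) and p53(M/M) libraries alone, and leaving out a p53(flox/flox) library could not change it. For p53(flox/flox) against p53(+/+) the difference was 0.16 (adjusted p = 0.486), 0.36 without p53(flox/flox) library 1 and -0.038 without library 2. Between p53(M/M) and p53(flox/flox) it was 0.26 (adjusted p = 0.258), 0.058 without library 1 and 0.46 without library 2. *Lamc3*, a gamma chain gene that is no member of the set, was at the floor in all 6 libraries.

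**Figure D4:**
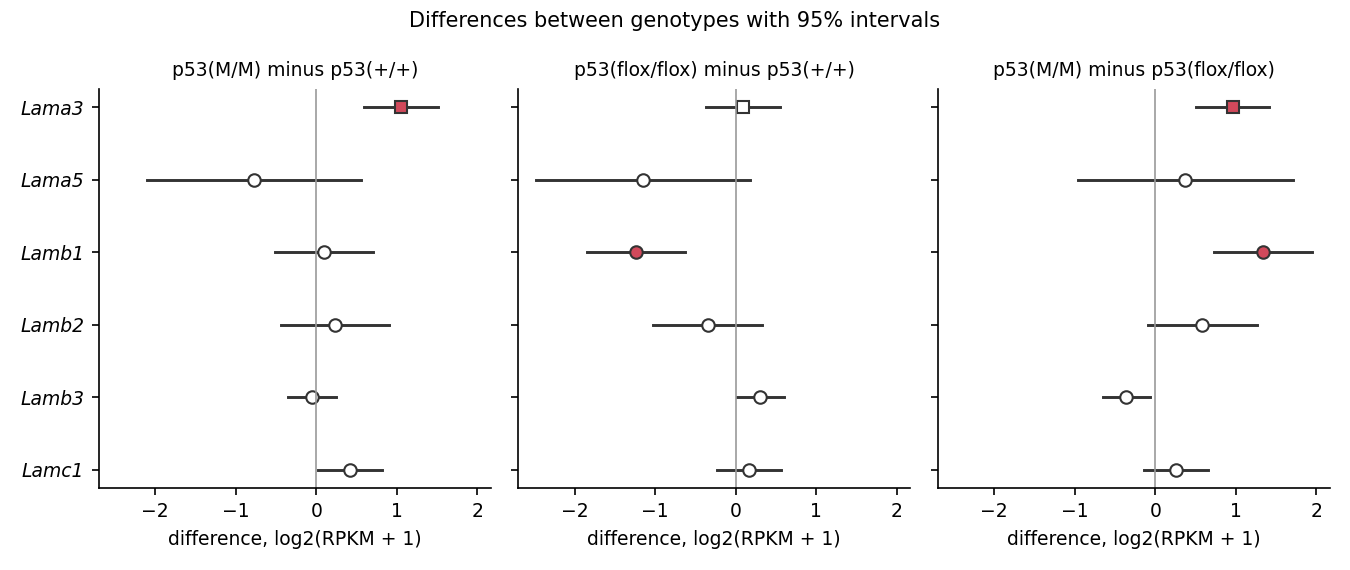
Difference in log2(RPKM + 1) between genotypes for 6 laminin chains, with 95% intervals from limma; circles were tested over 10042 genes and squares, for *Lama3*, over 12412, and red symbols passed an adjusted p of 0.05. *Lamb1* passed in the comparisons with p53(flox/flox) and *Lama3* in the comparisons of p53(M/M) with the other genotypes, while the intervals of *Lama5* were the widest.

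The genes that laminins work with were taken from lists of 47 symbols, of which 45 were in the table, 8 at the floor in all libraries and 28 tested. Against p53(+/+), p53(M/M) had 1 gene higher and 6 lower of the 28, where 5.86% of all genes tested were called higher and 6.36% lower. In p53(flox/flox) 2 were higher and 1 lower, where the shares of all genes were 4.38% and 6.90%. Against p53(flox/flox), p53(M/M) had *Bmp1* higher and *Col4a1*, *Col4a2*, *Tinagl1*, *Sdc4* and *Mmp7* lower, of which *Sdc4*, a cell surface proteoglycan gene, is named after its values were seen. The shares of all genes there were 13.6% higher and 11.0% lower. *Bmp1*, the higher call in both comparisons of p53(M/M), passed the 4 RPKM filter through the p53(M/M) libraries alone, so that its calls support nothing. *Col4a1* and *Col4a2* passed it through the p53(+/+) and p53(flox/flox) libraries alone, so that their calls in p53(M/M) support nothing either. The median difference of the 28 was -0.27, -0.22 and -0.04 in the 3 comparisons. The calls depended on which libraries were fitted, and so did those of all genes tested. Leaving out 1 library left its genotype without a spread of its own, so that nothing about these genes is read from such counts.

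Among basement membrane partners, 7 of 16 were tested, and the type IV collagen chains showed the widest differences. *Col4a1* measured 13.9 and 12.9 RPKM in p53(+/+), 17.2 and 22.1 RPKM in p53(flox/flox), and 1.27 and 1.66 RPKM in p53(M/M) libraries. *Col4a2*, whose product pairs with that of *Col4a1* in the collagen network that laminin sheets are tied to, measured 8.61 and 9.09, 14.1 and 16.9, and 1.09 and 1.58 RPKM. Neither gene overlapped between genotypes, and p53(M/M) stood close to the floor. Both genes passed the 4 RPKM filter through the p53(+/+) and p53(flox/flox) libraries alone. Their calls in p53(M/M) are therefore given as a description and support nothing. In p53(M/M) against p53(+/+) *Col4a1* fell by 2.55 ± 0.16 and *Col4a2* by 2.08 ± 0.16 on the log2 scale (limma adjusted p of 0.00367 and 0.00422). *Col4a2* rose by 0.74 in p53(flox/flox) against p53(+/+) (limma adjusted p = 0.0479). In the same p53(M/M) libraries *Lamc1*, *Lamb1* and *Lamb2* lay above their p53(+/+) values, *Lama5* lay below and *Lamb3* overlapped. None of these chains was called in that comparison. *Col4a3*, *Col4a4*, *Col4a5*, *Col4a6* and *Col15a1* were at the floor in all 6 libraries.

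*Col18a1*, a collagen of epithelial basement membranes, was lower in both genotypes, with 21.0 and 24.6 RPKM in p53(+/+), 13.4 and 11.3 RPKM in p53(flox/flox), and 11.99 and 14.9 RPKM in p53(M/M) libraries. It fell by 0.72 in p53(M/M) and by 0.83 in p53(flox/flox), with limma adjusted p of 0.0490 and 0.0374. *Tinagl1*, a secreted matrix glycoprotein, was higher in p53(flox/flox) by 0.95 (adjusted p = 0.0273), at 18.9 and 17.1 RPKM against 8.71 and 8.94 RPKM. Nidogens bridge laminin to type IV collagen. *Nid1* stood at the floor in both p53(+/+) libraries and measured 2.87 and 3.72 RPKM in p53(flox/flox) and 2.74 and 2.46 RPKM in p53(M/M), while *Nid2* measured 1.38 and 1.65 RPKM in p53(+/+) and stood at the floor in the other 4 libraries. The nidogen genes thus held opposite orders near the floor, below the 4 RPKM filter. *Sparc* was at the floor in both p53(+/+) libraries and reached 1.86 RPKM at most. Agrin (*Agrn*) and perlecan (*Hspg2*), laminin-binding proteoglycans named after their values were seen, were not called, and their p53(flox/flox) libraries differed as for *Lama5*, at 19.6 and 31.9 RPKM and at 3.11 and 10.7 RPKM.

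**Figure D5:**
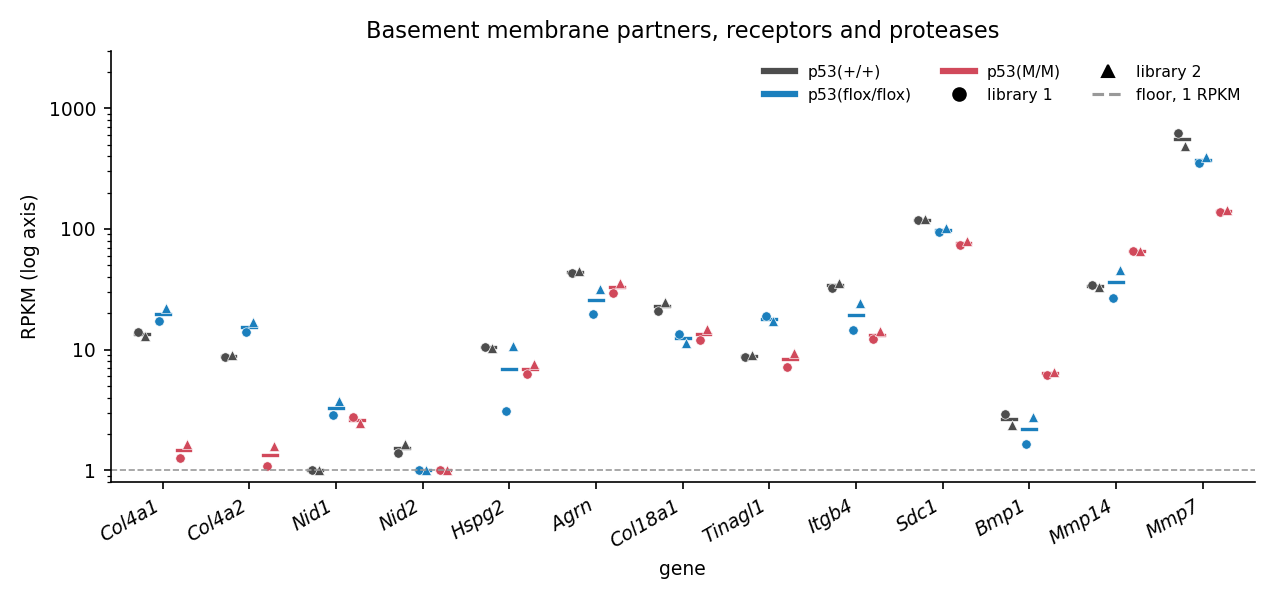
RPKM (log axis) of 13 genes for basement membrane partners, laminin receptors and laminin-cleaving proteases in each library, with circles for library 1, triangles for library 2, bars for genotype means and a dashed line at the floor. *Col4a1* and *Col4a2* stood near the floor in both p53(M/M) libraries, where *Bmp1* and *Mmp14* were highest and *Mmp7* lowest.

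Of 13 laminin receptor genes, 11 were tested, and p53(M/M) against p53(+/+) gave 2 lower calls and 0 higher, beside 6.36% and 5.86% of all genes. *Itgb4*, the integrin subunit that binds the hemidesmosomal laminin, measured 32.4 and 35.5 RPKM in p53(+/+), 14.4 and 24.2 RPKM in p53(flox/flox), and 12.2 and 14.3 RPKM in p53(M/M) libraries. It fell by 1.30 ± 0.25 in p53(M/M) (limma adjusted p = 0.0353), while in p53(flox/flox) the difference was -0.83 (adjusted p = 0.0900). Its partner subunit gene *Itga6*, named after its values were seen, was not called. *Itga6* measured 52.9 and 52.6 RPKM in p53(+/+), 30.3 and 59.1 RPKM in p53(flox/flox), and 68.6 and 64.1 RPKM in p53(M/M) libraries. *Itga2*, likewise named after its values were seen, was not called in p53(M/M) against p53(+/+) (limma adjusted p = 0.277). It measured 28.9 and 30.7, 4.34 and 21.6, and 13.1 and 11.96 RPKM in the same order. Of the 11 receptors, 4 differences were positive and 7 negative in that comparison. *Sdc1*, a cell surface proteoglycan, fell by 0.63 in p53(M/M) (adjusted p = 0.0241). *Dag1*, the dystroglycan gene, also named after its values were seen, was nearly level between p53(+/+) and p53(M/M), at 67.5 and 67.7 RPKM and 71.8 and 70.6 RPKM, with an interval of the log2 difference of -0.63 to 0.77. *Itga1* reached 1.18 RPKM at most and stood at the floor in p53(M/M). The p53(flox/flox) comparison gave 0 calls among the 11 receptors with limma, where 4.38% of all genes were called higher and 6.90% lower. Of the 11, 2 had an unadjusted p under 0.05, a threshold for which no share of all genes is given.

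Of the hemidesmosome genes, *Plec* alone was tested and was not called, *Col17a1* was at the floor in all libraries, and *Dst* was at the floor in both p53(M/M) libraries, with 1.90 and 2.47 RPKM in p53(+/+). Of the 7 dystroglycan glycosylation genes in the table, 5 were tested and 0 were called by limma in the 3 comparisons (all genes, 4.38% to 13.6% in a direction). Those with an unadjusted limma p under 0.05 numbered 1, 3 and 1 in p53(M/M) against p53(+/+), p53(flox/flox) against p53(+/+) and p53(M/M) against p53(flox/flox). The share of all genes under that unadjusted threshold is not given, so that these counts do not set the genes apart. *B3gnt1*, below the filter, was at the floor in both p53(flox/flox) libraries, against 3.52 and 3.41 RPKM in p53(+/+).

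All 3 genes for proteases that cleave laminin chains were tested. *Bmp1*, which trims secreted matrix proteins such as the *Lama3* product, measured 2.92 and 2.38 RPKM in p53(+/+), 1.64 and 2.74 RPKM in p53(flox/flox), and 6.17 and 6.56 RPKM in p53(M/M) libraries. It reached 4 RPKM in the p53(M/M) libraries alone, so that its calls, counted above, support nothing. *Mmp7*, a matrix metalloproteinase of Paneth and tumor cells, was the most abundant of the set, at 624 and 485, 351 and 397, and 138 and 143 RPKM, and fell by 1.96 ± 0.16 in p53(M/M) (adjusted p = 0.00441). *Mmp14*, a membrane-bound metalloproteinase, measured 34.1 and 33.0 RPKM in p53(+/+), 26.5 and 45.5 RPKM in p53(flox/flox), and 65.1 and 65.5 RPKM in p53(M/M), a difference of 0.94 that did not pass (adjusted p = 0.0706). For *Bmp1* and *Mmp14* both p53(M/M) values lay above all 4 others, and for *Mmp7* below them.

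The genes most like *Lamb1*, *Lama3* and *Lama4* across the 6 libraries were listed by Pearson correlation of log2(RPKM + 1), as a description. *Vps54* (0.9995) and *4933431E20Rik* (0.9992) were nearest to *Lamb1* among 10042 genes. *Tor1aip2* (0.9981) and *Ptpn9* (0.9963) were nearest to *Lama3* among 12412. *Itih5* and *2310042D19Rik* (both 1.0) were nearest to *Lama4* and, like it, stood at the floor in the 4 libraries that were not p53(M/M). The points are 6 libraries of 3 genotypes, so that the correlations carry no test.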

How the data were processed

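Poly(A) RNA of 6 organoid libraries was sequenced by the study on an Illumina platform from stranded mRNA libraries. The authors mapped reads to mm10 and computed the deposited RPKM values with StrandNGS. Its version, annotation, read filters and use of strand are not given in the sources used here. The floor of 1 RPKM is inferred from the values.

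The deposited RPKM table held 36172 genes. Genes were placed with GENCODE M21, which matched 9965 (99.2%) of the 10042 genes with at least 4 RPKM in 1 library, the filter the study used for clustering. In R 4.3.3, limma 3.58.1 fitted log2(RPKM + 1) for all 6 libraries (lmFit, eBayes with trend, two-sided, Benjamini-Hochberg at 0.05), without a block. Fold changes on this scale understate those of low genes. An exact permutation test of 2 against 2 cannot go below 0.333 and was not used. The script was tested on simulated data.

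The members, gene lists and tests were chosen with earlier results of these data known. All 8 members were named, and list genes that were called against p53(+/+) or at the floor in a whole genotype. Promoter sequences came from RefSeq; those of *Lama1*, *Lama3*, *Lama4* and *Lamc1* were not analysed here. A further gene of the lists is not reported here. Alternatives changed the filter, the pseudocount, the scaling, the variance model, the libraries fitted and the block. Depth is unknown; gaps between values of RNAs under 230 nt put 5 libraries at 44.2 to 52.2 M reads and p53(flox/flox) library 1 at 23.1 M reads, estimates that were used for no test.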

Additional observations from a re-analysis of the deposited data

How the results depend on the processing

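The differences of single chains kept their direction in all but 6 of 303 values over 18 results. Of these values, 253 also kept their side of the threshold, 27 lost a call and 17 gained one. Changes of filter, variance model or block, and fits of only the genotypes compared, return the same difference by construction. So does leaving out a library of a genotype outside the comparison. The kept direction in these settings is therefore no evidence. Only the pseudocount, the scaling and leaving out a library of a compared genotype could move a difference. Among these, the sign changed only when such a library was left out. The ranges then were -0.12 to 0.31 for *Lama3*, -0.72 to 0.018 for *Lamb2* and -0.038 to 0.36 for *Lamc1* in p53(flox/flox) against p53(+/+), -0.44 to 1.19 for *Lama5* in p53(M/M) against p53(flox/flox), and -0.14 to 0.037 for *Lamb3* in p53(M/M) against p53(+/+). Where a genotype had 1 library left, that library was assumed to vary like the others.

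Counts of calls follow in the order p53(M/M) against p53(+/+), p53(flox/flox) against p53(+/+), and p53(M/M) against p53(flox/flox). For the chains (0, 1 and 1 in the report), a filter at the floor gave 2 and 3 in the first and last, which count *Lama4*, detected in p53(M/M) alone. No filter gave 1 and 0 in the first 2, weights per genotype 2 and 0, a pseudocount of 0 gave 0 in the second, and fits of 2 genotypes gave 2, 0 and 0. Leaving out libraries gave 0 to 2, 0 to 3 and 0 to 5. For the partner genes (7, 3 and 6), a filter at the floor gave 12 and 5 in the first 2, no filter 1 in the second, weights 19, 0 and 2, fits of 2 genotypes 19, 0 and 3, and leaving out libraries 0 to 18, 0 to 22 and 2 to 19. For all genes (1227, 1133 and 2469), a filter at the floor gave 1907 in the first, no filter 752, 343 and 1153, weights 5987, 150 and 534, fits of 2 genotypes 5851, 54 and 443, and leaving out libraries 0 to 5777, 8 to 6907 and 166 to 7276. Fits without p53(flox/flox) libraries, or of 2 genotypes, have fewer samples and another pooled spread; the cause of the other changes was not tested. Scaling moved the share of higher calls by less than 10 percentage points. The mean *Lama5* share with floor values as 0 was 96.7% in p53(+/+) and 97.1% in p53(flox/flox), and that of *Lamb1* was 3.28% in p53(flox/flox).

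Same-numbered libraries came from different mice, and their deviations correlated at 0.117, -0.291 and -0.196 between genotype pairs, so that the numbers were not taken to pair the samples. With the replicate block, 0 chains were called in p53(flox/flox) against p53(+/+), 4 and 0 partner genes in the first 2 comparisons, and 550, 280 and 1156 genes in all. With the p53(M/M) numbers exchanged in the block, 1 partner gene was called in p53(flox/flox) against p53(+/+). This exchange and the alternatives for *Lama3* were chosen after seeing the data.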
